A study of Mus musculus with 8 samples.

Results

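The genes described here are Chac1, Ern1 and 8 further regulators and targets of the unfolded-protein response, measured by RNA sequencing in whole lower first molars of mouse embryos at E18.5. They were chosen by symbol, with the difference between the genotypes in these same embryos already known, and all 10 are found among the 43629 genes of the count tables. The Control embryos are given here as Jagged1 fl/fl (J3, J5, J6 and J7, n = 4), whereas the paper calls them wild-type littermates. The Mutant embryos were K14:cre; Jagged1 fl/fl (K14J26, K14J28, K14J29 and K14J30, n = 4). With Jagged1 fl/fl controls, both groups carried the floxed alleles and differed in the Cre transgene. Its K14 promoter is active in epithelium, so that Jagged1, a ligand of the Notch receptors, was to be removed from the dental epithelium and not from the mesenchyme. The left and right molars of each embryo were pooled into 1 library, controls were littermates, and the labels give neither the sex nor the litter of an embryo.

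The endoplasmic reticulum (ER) folds secreted and membrane proteins, and when unfolded protein builds up there, sensors in its membrane start the unfolded-protein response. IRE1, the product of Ern1, splices the Xbp1 transcript; PERK phosphorylates eIF2alpha, which slows translation in general while favouring that of ATF4; and ATF6 moves to the Golgi, where it is cut to release a transcription factor. Ameloblasts and odontoblasts, the secretory cells that lay down enamel and dentin matrix, carry a heavy load of secreted protein, and ER stress in them is known to disturb tooth formation.

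Libraries held 17327224 to 28613574 counts in Control and 24692128 to 29792467 in Mutant molars. Levels are given below as CPM, the count of a gene scaled to a common library size after correction by TMM, a method that sets libraries level on most of their genes, and 3 counts corresponded to 0.0998 to 0.166 CPM. Jag1, the targeted gene, was lower in Mutant molars, with a value of -1.19 ± 0.14 (standard error) for the log2 ratio of Mutant to Control, here called the log2 fold change, and an adjusted p of 0.00517 (edgeR quasi-likelihood test, Benjamini-Hochberg adjustment over 17129 genes). K14J26 stood apart from the other libraries: Amelx, Ambn and Enam, which encode enamel matrix proteins, took 9.57% of its counts, against 2.47% in K14J29, 0.965% in K14J30, only 0.356% in K14J28 and 0.0559% to 0.329% in Control molars. J6 and J7 held skeletal muscle transcripts, with Acta1 at 131 and 52.7 CPM. In a bulk molar, fewer cells of a type and less RNA per cell cannot be told apart.

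ATF4, CHOP, ATF6 and XBP1 act through short promoter motifs, and the stretches around the matches found upstream of Chac1, Asns and Hspa5 are shown because Chac1 was higher in every Mutant embryo while Asns and Hspa5 overlapped between the groups. RefSeq windows on GRCm38.p6, from 250 bases before to 50 bases after a start, were held for 8 of the 10 genes, all but Atf6 and Creb3l1. Motifs were searched on both strands, and in the lines below the match is in capitals, on the gene's own strand from 5′ to 3′. The Chac1 stretch is chr2:119351029-119351076 on the plus strand, the Asns stretch is chr6:7693210-7693252 on the minus strand, and the Hspa5 stretch is chr2:34772005-34772063 on the plus strand.
Chac1: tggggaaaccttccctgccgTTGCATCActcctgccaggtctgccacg
Asns: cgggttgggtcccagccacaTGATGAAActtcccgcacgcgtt
Hspa5: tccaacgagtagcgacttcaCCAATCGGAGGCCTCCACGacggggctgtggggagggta
The core of the C/EBP-ATF element bound by ATF4 and CHOP, TGATGNAA, occurred in 3.97% of all 32851 windows and in 3 of the 8, those of Chac1, Asns and Trib3. With the start at position 0, the Chac1 match lay on the opposite strand at positions -193 to -186, the Asns match on the gene's strand at -23 to -16, and the Trib3 match after the start. A match is a run of letters and was not tested as a binding site. The ER stress element, bound by ATF6 with NF-Y, occurred in 0.119% of windows and in 1 of the 8, Hspa5, at positions -65 to -47. The ER stress element II and the unfolded-protein response element TGACGTGG, which share the letters CCACG, on either strand, with the ER stress element, occurred in 0.0365% and 0.676% of all windows and in 0 of the 8.

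The differences between the groups among the 10 genes lay mainly in Chac1 and Ern1. Chac1 was 13.7-fold higher in Mutant than in Control molars by the ratio of mean CPM, and the fitted difference of Ern1 was 1.74 on the log2 scale. Atf6 was higher by a smaller amount, and Xbp1 was higher in part of the Mutant embryos. Atf4, Ddit3, Trib3, Asns, Hspa5 and Creb3l1 had log2 fold changes between -0.17 and 0.47. All 10 genes had enough counts to be tested. Adjusted p was under 0.05 for 3 of them in the direction of higher in Mutant molars (Chac1, Ern1 and Atf6), against 9.52% of all genes tested, and for 0 in the other direction, against 6.61% (edgeR; 0 also at an unadjusted p under 0.05 and 0 with DESeq2). The groups did not overlap for the same 3 genes, higher in Mutant molars, against 12.6% of all genes tested, and for 0 genes lower in Mutant molars, against 11.6%. Since the genes were selected on this contrast, their shares are not evidence about the pathway, and no p-value is given for them. The count of 3 became 1 without J3, J5, J7 or K14J29, and 2 without J6, with Chac1 the gene that remained called in all 8 such fits, and without J6 and J7 together it was 0 (3 at an unadjusted p under 0.05).

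**Figure D1:**
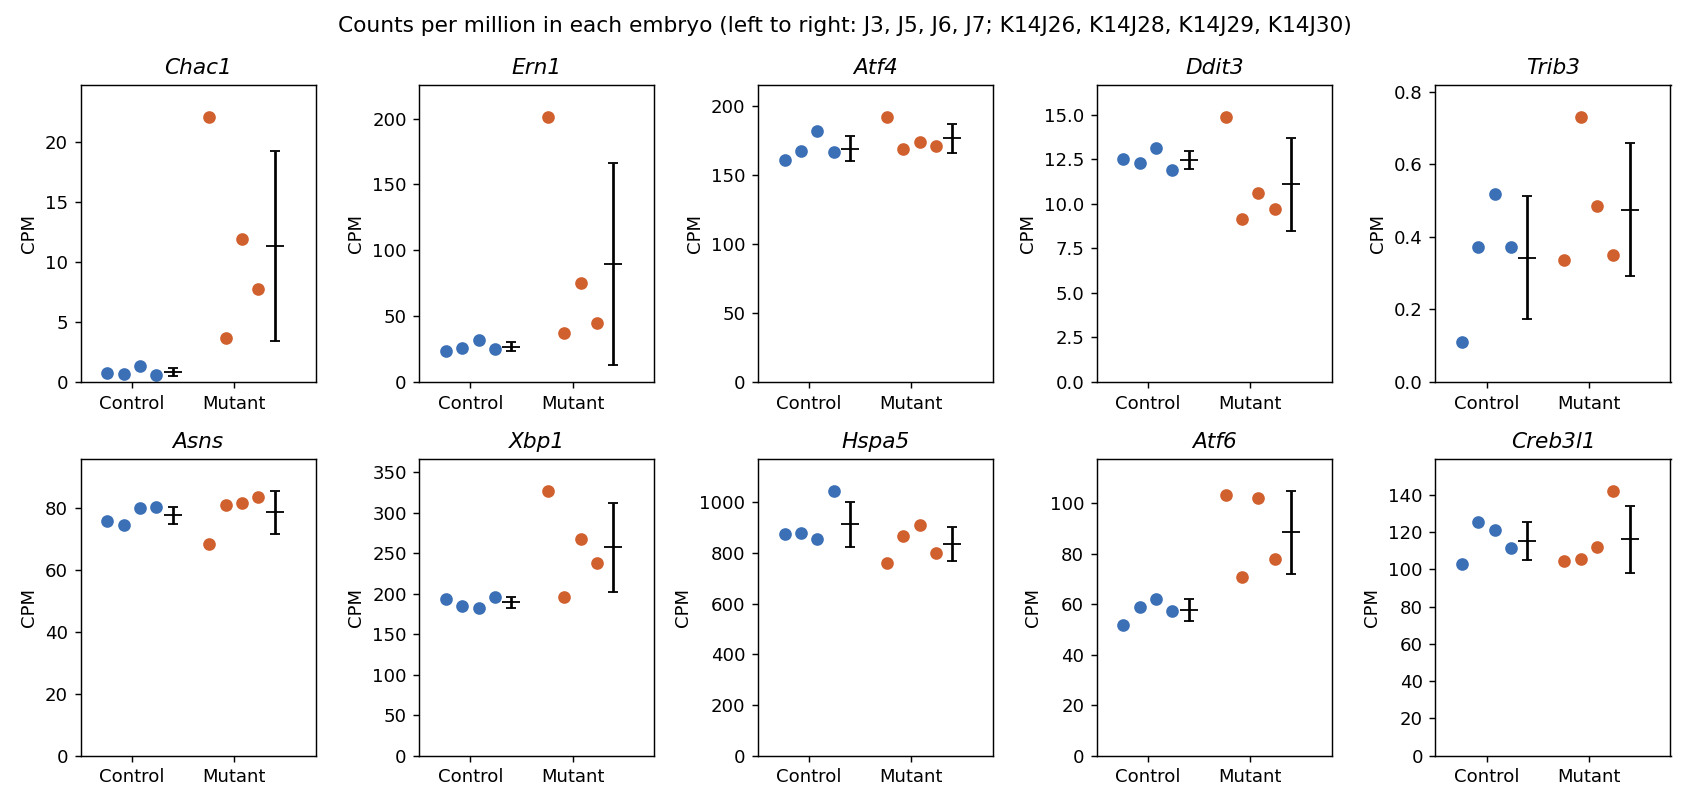
CPM of each of the 10 genes in every embryo, with Control in blue, Mutant in orange, and the mean ± SD of each group as a bar (n = 4 per group); each panel has its own axis from 0. The 4 Mutant points of Chac1 lie between 3.66 and 22.1 CPM, above the highest Control point of 1.30, and K14J26 is the highest point for Chac1, Ern1, Xbp1 and Atf6.

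Of the sensors, Ern1 (ENSMUSG00000020715, chr11:106394650-106487852, GRCm38) encodes IRE1, a kinase and endoribonuclease of the ER membrane. Its level was 23.6 CPM in J3, 26.1 in J5, 31.9 in J6 and 25.4 in J7, and 201 in K14J26, 36.9 in K14J28, 75.4 in K14J29 and 44.5 in K14J30. The groups did not overlap, but K14J28 lay only just above J6 while K14J26 was far above all others. On the log2 scale the fold change was 1.74 (standard error 0.49), and it was 0.97 without K14J26 and 0.60 without K14J26 and K14J29. The adjusted p of Ern1 no longer passed 0.05 when J3, J5, J6, J7 or K14J29 was left out, with log2 fold changes between 0.97 and 1.99 over all 8 omissions.

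Atf6 (ENSMUSG00000026663, chr1:170704674-170867771), the gene of the sensor that becomes a transcription factor, stood at 52.0 CPM in J3, 59.0 in J5, 62.3 in J6 and 57.2 in J7. In Mutant molars it was at 103 CPM in K14J26, 70.8 in K14J28, 102 in K14J29 and 77.9 in K14J30. Every Mutant embryo was above every Control embryo, and the spread among Mutant embryos was smaller than for Ern1. Its log2 fold change was 0.62 (standard error 0.13), 0.54 without K14J26 and 0.36 without K14J26 and K14J29, with the call kept in both fits. The call was lost without J3 (0.57), J5 (0.62), J7 (0.61) or K14J29 (0.54), at sizes close to that of the whole fit.

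Creb3l1, which encodes OASIS, an ER-bound relative of ATF6 active in bone and other collagen-secreting tissue, was at 103 to 126 CPM in Control and 104 to 142 CPM in Mutant molars. The groups overlapped nearly throughout, with J3 the lowest embryo and K14J30 the highest. Its log2 fold change was 0.01 (standard error 0.11).

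Of the transcription factors, Xbp1 encodes the factor whose transcript IRE1 splices. It was at 194 CPM in J3, 185 in J5, 183 in J6 and 196 in J7, and at 328 in K14J26, 196 in K14J28, 268 in K14J29 and 238 in K14J30. K14J28 lay within the Control range and the other 3 Mutant embryos above it. The log2 fold change was 0.44 (standard error 0.13), and 0.19 without K14J26 and K14J29. Xbp1 was not called in the fit reported here, and was called higher with DESeq2 (0.44), without a count filter (0.44), with a filter of 1 CPM (0.43) and without K14J28 (0.55). The tables count reads per gene and do not separate spliced from unspliced Xbp1, so the activity of IRE1 was not measured.

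Atf4 (ENSMUSG00000042406, chr15:80255184-80257541), the factor whose translation PERK and its sister kinases favour, was at 161 to 182 CPM in Control and 169 to 193 CPM in Mutant molars. The groups overlapped, K14J26 being the highest, and the log2 fold change was 0.06 (standard error 0.07), or -0.04 with scaling by library size alone. Because ATF4 is regulated mainly in translation, its transcript level is not a measure of the protein.

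Ddit3, which encodes CHOP, a factor downstream of ATF4 linked to cell death, was at 12.5 CPM in J3, 12.3 in J5, 13.1 in J6 and 11.9 in J7. In Mutant molars it was at 14.9 in K14J26, 9.14 in K14J28, 10.6 in K14J29 and 9.73 in K14J30. K14J26 was thus above all Control embryos, and the other 3 Mutant embryos were below all of them. The log2 fold change was -0.17 (standard error 0.15), and without K14J26 it was -0.34, which then passed an adjusted p of 0.05 as lower. The exons of Ddit3 share 68 bases with Mars on the opposite strand, whose mean level was 69.3 CPM, and the kit does not mark strand, so reads there cannot be assigned to either gene.

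Chac1 led the targets. It encodes an enzyme that degrades glutathione, is switched on by ATF4 and CHOP, and lies at chr2:119351229-119354381 (ENSMUSG00000027313). In Control molars it gave 14 counts in J3, 17 in J5, 25 in J6 and 16 in J7, or 0.775, 0.701, 1.30 and 0.540 CPM. In Mutant molars it gave 460 counts in K14J26, 110 in K14J28, 343 in K14J29 and 200 in K14J30, or 22.1, 3.66, 11.9 and 7.76 CPM. Even the lowest Mutant embryo, K14J28, was well above the highest Control embryo, J6.

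The mean of Chac1 was 0.828 ± 0.327 CPM (SD, n = 4) in Control and 11.3 ± 7.91 CPM (SD, n = 4) in Mutant molars. The log2 fold change was 3.80 (standard error 0.56), and it stayed between 3.26 and 4.09 when any 1 embryo was left out. The difference was smallest without K14J26, and without both K14J26 and K14J29 it was 2.80.

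Asns, which encodes asparagine synthetase and carries the C/EBP-ATF core shown above, was at 74.4 to 80.1 CPM in Control and 68.3 to 83.6 CPM in Mutant molars. K14J26 was the lowest of all 8 embryos, the other 3 Mutant embryos were above all Control embryos, and the log2 fold change was 0.02 (standard error 0.07). Trib3, a pseudokinase that is a target of ATF4 and CHOP and dampens them, gave 2, 9, 10 and 11 counts in J3, J5, J6 and J7, and 7, 22, 14 and 9 counts in K14J26, K14J28, K14J29 and K14J30. The groups overlapped and K14J26, the highest embryo for Chac1, was the lowest Mutant embryo for Trib3. Its log2 fold change was 0.47 (standard error 0.43), an error nearly as large as the value. With an embryo left out it ran from 0.17 (without K14J28) to 0.69 (without J6).

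Hspa5 encodes BiP, the main chaperone of the ER lumen, whose promoter holds the ER stress element shown above. It was at 877 CPM in J3, 879 in J5, 854 in J6 and 1046 in J7, and at 759 in K14J26, 867 in K14J28, 909 in K14J29 and 800 in K14J30. The groups overlapped, with J7 above the rest and K14J26, the highest embryo for Ern1 and Chac1, the lowest of all 8. Its log2 fold change was -0.13 (standard error 0.09), and -0.07 without J7.

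**Figure D2:**
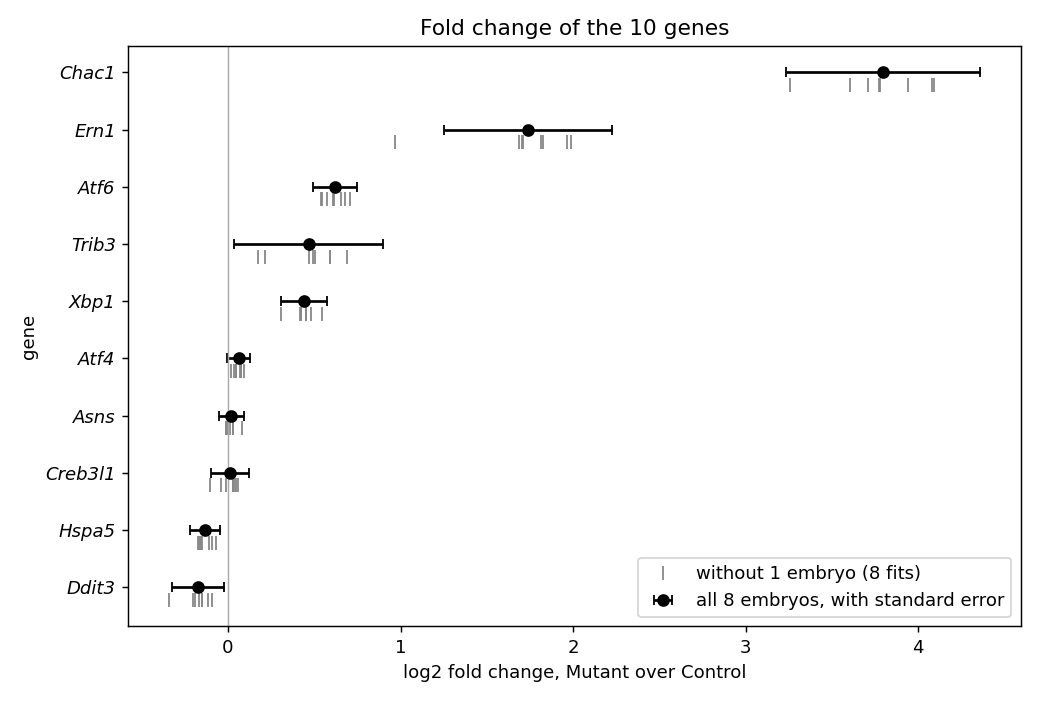
Log2 fold change of each gene, Mutant over Control, with its standard error (points and bars, 8 embryos), and the values with each embryo left out in turn (grey ticks). Chac1 at 3.80 and Ern1 at 1.74 stand apart from the other 8 genes, and the lowest tick of Ern1, at 0.97, is the fit without K14J26.

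Per kilobase of exon, where levels may be compared between genes, Control molars held most of the chaperone Hspa5 and least of Chac1 and Trib3. Hspa5 was at 216 CPM per kilobase, followed by Atf4 at 71.9, Xbp1 at 58.3, Creb3l1 at 44.3, Asns at 28.4, Ddit3 at 7.28, Atf6 at 6.24, Ern1 at 3.27, Chac1 at 0.506 and Trib3 at 0.161. No neighbours in this order overlapped between the Control embryos. The order of genes at close levels may depend on the exon length used, and other lengths were not tried. In Mutant molars Xbp1 at 79.3 and Atf4 at 75.0 CPM per kilobase overlapped. Ern1 at 11.0, Atf6 at 9.59, Chac1 at 6.93 and Ddit3 at 6.48 formed a run in which each overlapped its neighbour. Chac1 thus moved from far below Ddit3 to the same range, while Trib3 stayed last at 0.224 CPM per kilobase.

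**Figure D3:**
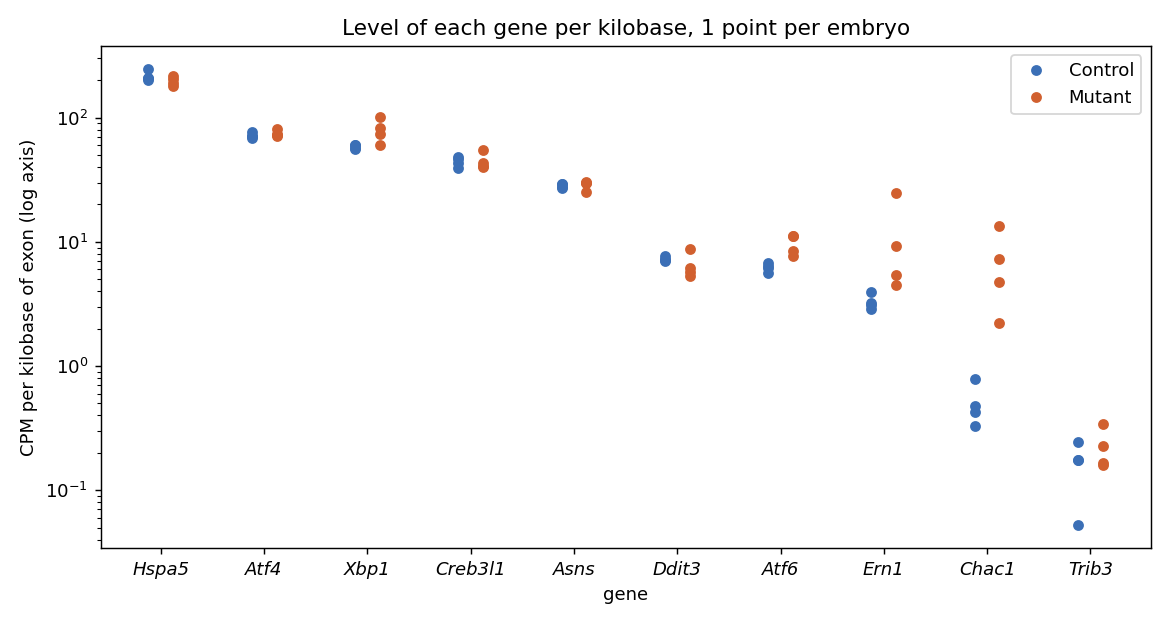
CPM per kilobase of exon on a log axis, 1 point per embryo, for the 10 genes in the order of their Control means. Control points of neighbouring genes do not overlap. Mutant points of Ern1, Atf6, Chac1 and Ddit3 overlap in part and together span 2.23, the lowest of Chac1, to 24.6, the highest of Ern1.

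The Mutant embryos fell into the same order for several of these genes, which was noticed after the values were seen. K14J26 was highest, then K14J29, K14J30 and K14J28, for Chac1, Ern1, Atf6, Xbp1, Atf4 and Ddit3, that is for 6 of the 10, against 13.6% of all genes tested. Amelx, the enamel matrix gene, was at 60581 CPM in K14J26, 14513 in K14J29, 6668 in K14J30 and 2465 in the last, K14J28, in that order too. K14J28 and J6, at 2407 CPM, therefore had similar amounts of Amelx, and in this pair Chac1 was at 3.66 and 1.30 CPM, Ern1 at 36.9 and 31.9, Atf6 at 70.8 and 62.3, and Xbp1 at 196 and 183, while Atf4 was lower in K14J28, at 169 against 182 CPM, and so was Ddit3, at 9.14 against 13.1 CPM. The pair sets a single embryo of each group side by side and is matched on Amelx alone. Other ameloblast and odontoblast markers were nearly level in K14J28 and J6 in part. Ambn was at 450 and 417 CPM, Phex at 178 and 161, and Nes at 178 and 190. Mmp20 was at 80.1 and 67.1 CPM, Dlx3 at 229 and 277, Dspp at 1800 and 1376, and Enam at 505 and 360. Odam was further apart, at 456 and 169 CPM, and Dmp1 was at 190 and 265 CPM. Klk4 was under 1 CPM in both. Trib3, Asns, Hspa5 and Creb3l1 followed other orders among the Mutant embryos.

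**Figure D4:**
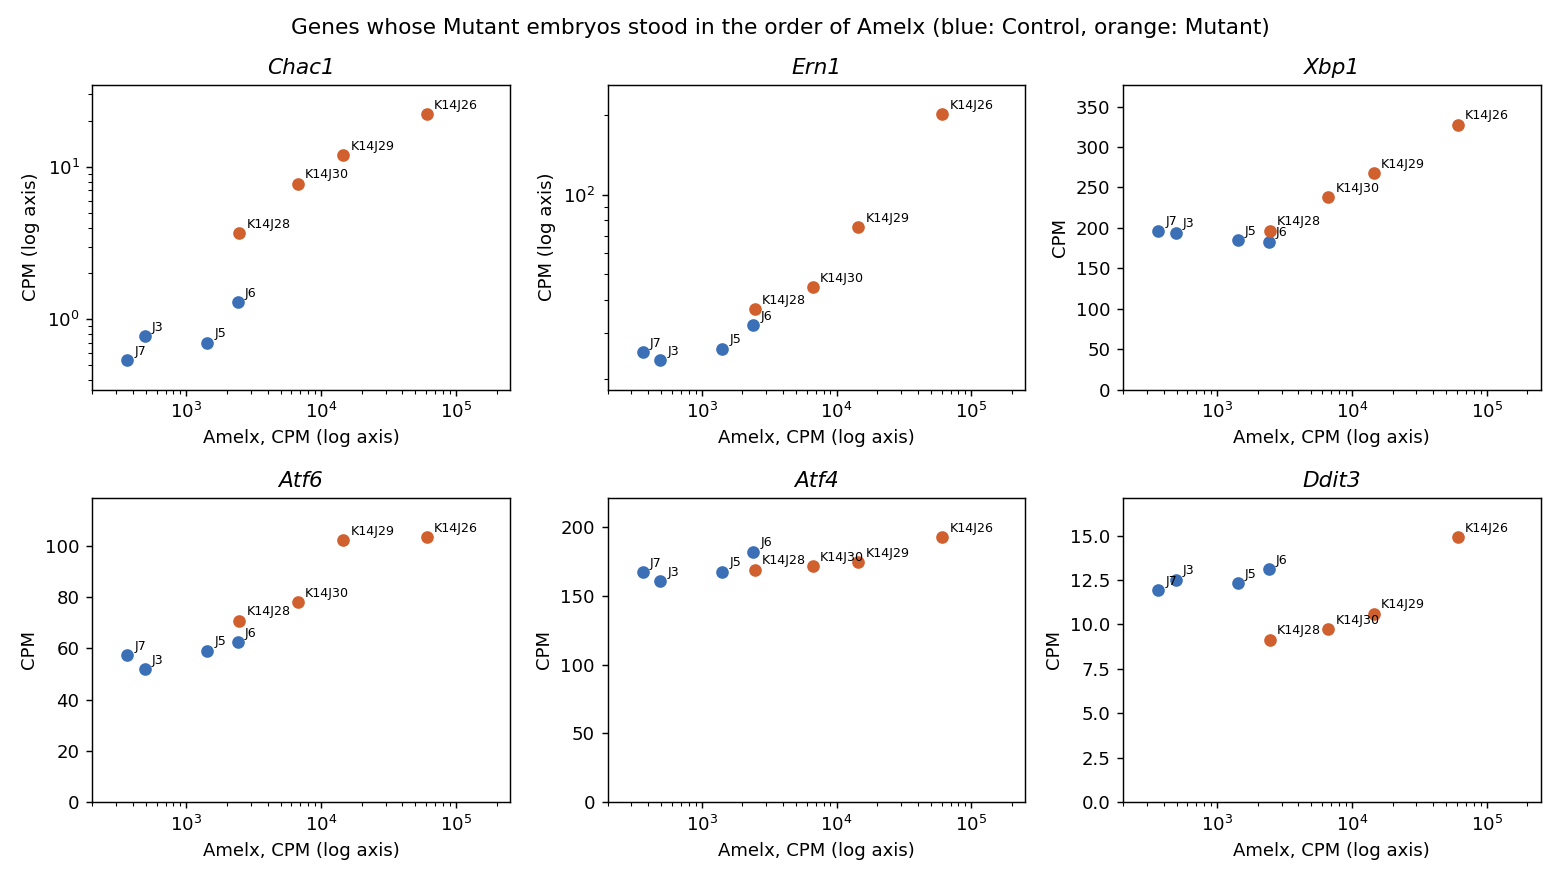
Level of 6 genes (CPM; log axis for Chac1 and Ern1) against Amelx (CPM, log axis), 1 labelled point per embryo, Control in blue and Mutant in orange. In each panel the 4 Mutant points climb with Amelx from K14J28 to K14J26, and in Ddit3 the 3 Mutant points below 11 CPM lie under all Control points.

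Some markers of other cells differed between the groups as well. Of the 6 ameloblast markers tested, 5 rose in Mutant molars, and their summed level was 710 to 3421 CPM in Control and 3957 to 114671 CPM in Mutant molars. Of the 5 odontoblast markers, 3 rose, with sums of 951 to 2270 CPM and 2574 to 7807 CPM, and the sums of 7 dental epithelium markers were 4911 to 5608 CPM and 5888 to 8345 CPM. No tested marker of these lists was at 0 in any library. Of 5 osteoblast markers 2 rose and 0 fell, with a median log2 fold change of 0.34, and their sums were 826 to 1023 CPM and 1151 to 1292 CPM. Of 7 dental mesenchyme markers 2 rose (Col1a1 and Pdgfra) and 3 fell (Msx1, Barx1 and Twist1), with a median of -0.12, and their sums of 4991 to 7787 CPM and 6578 to 18001 CPM were mostly Col1a1. Skeletal muscle markers summed to 5.09 to 287 CPM in Control and 5.48 to 15.4 CPM in Mutant molars. Of these 6, 1 (Ckm) fell and 0 rose, with a median of -3.30. Immune markers summed to 71.7 to 95.7 CPM and 109 to 197 CPM, where 1 of 5, Lyz2, was called. Lyz2 was highest in K14J26, at 54.3 CPM, and Csf1r and Cd68 in K14J28, at 92.7 and 42.3 CPM. Of 5 nerve and Schwann markers 1 (Tubb3) rose and 0 fell, with a median of -0.16. Of 5 endothelium and 5 erythroid markers 0 were called, with medians of -0.15 and 0.05. Without J6 and J7 the log2 fold change was 3.93 for Chac1, 1.84 for Ern1 and 0.67 for Atf6, but none of the 3 passed an adjusted p of 0.05 in that fit. The part of the marker lists in the differences was not tested.

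The rest of the pathway was read from 7 lists of 143 other genes, of which 140 were tested. In Mutant molars 20 of them rose, or 14.3% against 9.52% of all genes, and 6 fell, or 4.29% against 6.61%. The median log2 fold change was 0.12 over the 140 genes and 0.01 over all genes tested. The count of genes that rose was 3 without J3, 4 without J5, 11 without J6, 3 without J7, 40 without K14J28 and 1 without K14J29, and those that fell numbered 1 without J3 or J5, 2 without J7 or K14J29 and 3 without K14J30. The counts over all genes moved in the same fits: 1631 rose with all 8 embryos, and 373 without J3, 451 without J5, 853 without J6, 300 without J7, 2479 without K14J28 and 250 without K14J29. The order of Mutant embryos given above held for 36 of the 140 genes, or 25.7% against 13.6% of all genes tested, with 11 of 25 in the list of ER-associated degradation and 1 of 29 in that of amino acid and tRNA charging genes.

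**Figure D5:**
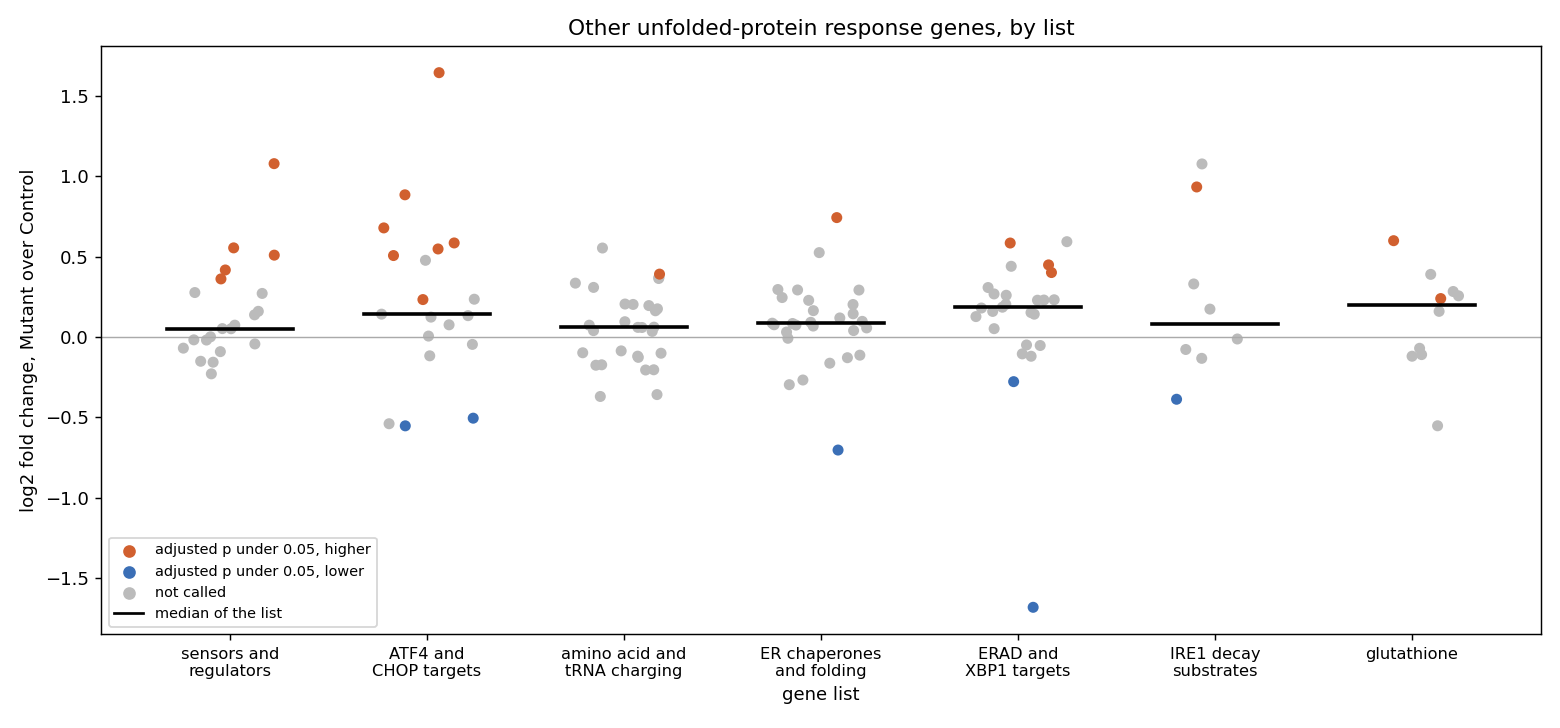
Log2 fold change, Mutant over Control, of each tested gene of the 7 lists, coloured where the adjusted p of edgeR was under 0.05 (orange higher, blue lower), with the median of each list as a line. Medians lie between 0.05 and 0.20, and Derl3 at -1.68 is the lowest point.

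Of 21 transducers and regulators, 5 rose and 0 fell (edgeR; 1 at an unadjusted p under 0.05 and 0 with DESeq2), with a median log2 fold change of 0.05. The largest rise was in Creb3l3, an ER-bound factor of the ATF6 kind, by 1.08 (adjusted p = 0.0312), from a mean of 3.20 to 6.72 CPM. Map3k5, the kinase ASK1 that acts below IRE1, rose by 0.56 (adjusted p = 0.0134), and Creb3, an ER-bound factor, by 0.51 (adjusted p = 0.0217). Eif2ak3, which encodes PERK and is named here after its value was seen, rose by 0.36 (adjusted p = 0.0418), from 47.2 to 51.6 CPM in Control to 54.7 to 76.5 CPM in Mutant molars. Tmbim6, an inhibitor of IRE1 and the most abundant gene of the list per kilobase, was nearly level between the groups, at -0.02 (adjusted p = 0.880). Leaving out K14J29 ended each of these 4 calls, J3, J5 or J7 those of all but Map3k5, K14J30 those of Creb3l3 and Eif2ak3, and J6 that of Eif2ak3, with log2 fold changes of 0.94 to 1.27 for Creb3l3, 0.48 to 0.60 for Map3k5, 0.44 to 0.60 for Creb3 and 0.26 to 0.42 for Eif2ak3, and scaling by library size also ended that of Eif2ak3. Without K14J26 and K14J29 together the calls of Creb3l3 (0.92), Creb3 (0.33) and Eif2ak3 (0.20) were lost, and the groups overlapped for Creb3l3.

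Of 19 targets of ATF4 and CHOP outside amino acid metabolism, 7 rose and 2 fell, with a median of 0.14. Cebpg, a C/EBP factor that pairs with ATF4, rose by 0.89 (adjusted p = 0.0115) and passed in all 8 fits without 1 embryo. Ndrg1, a gene induced by hypoxia and stress, rose by 1.65 (adjusted p = 0.0188), from 60.1 to 118 CPM in Control to 130 to 399 CPM in Mutant molars, and Vldlr, a lipoprotein receptor, by 0.68 (adjusted p = 0.0252). Atf3, a stress factor induced by ATF4, fell by 0.55 on the log2 scale (adjusted p = 0.0179), and Eif4ebp1, a brake on translation, fell by 0.50 (adjusted p = 0.0325). The calls of Ndrg1 and Vldlr were lost without J3, J5, J7 or K14J29, that of Atf3 without J3, J5 or K14J29, and that of Eif4ebp1 without J3, J5, J6, J7, K14J29 or K14J30, with ranges of 1.37 to 1.86, 0.54 to 0.78, -0.61 to -0.51 and -0.62 to -0.40, and scaling by library size also ended that of Eif4ebp1. Without K14J26 and K14J29 together the calls of Ndrg1 (0.996), Vldlr (0.38), Atf3 (-0.54) and Eif4ebp1 (-0.33) were lost.

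Amino acid and tRNA charging genes controlled by ATF4, the company of Asns, gave 1 rise and 0 falls among 29 (edgeR; 2 falls at an unadjusted p under 0.05 and 1 with DESeq2), with a median of 0.06. The rise was in Sars, the seryl-tRNA synthetase, by 0.39 (adjusted p = 0.0243; 0.35 to 0.46 without 1 embryo, lost without J3, J5, J7 or K14J29, with library size scaling, and without K14J26 and K14J29 together, at 0.27). Gars, the glycyl-tRNA synthetase and the most abundant of the list per kilobase, was not called.

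ER chaperones and folding enzymes, the company of Hspa5, gave 1 rise and 1 fall among 28, with a median of 0.09. Fkbp14, a prolyl isomerase that helps fold collagen, rose by 0.74 (adjusted p = 0.0179), and Ero1lb, an ER oxidase, fell by 0.70 (adjusted p = 0.0290). Both calls were lost without J3, J5, J7 or K14J29, and that of Ero1lb also without J6 or K14J30, with ranges of 0.63 to 0.86 and -0.82 to -0.56. Serpinh1, the collagen chaperone HSP47 and the most abundant gene of the list per kilobase, differed by 0.09 on the log2 scale (adjusted p = 0.551).

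Of 25 genes of ER-associated degradation and other XBP1 targets, 3 rose and 2 fell, with a median of 0.19. Derl3, which helps move misfolded protein out of the ER and is a target of IRE1 and XBP1, was at 6.53 CPM in J3, 3.83 in J5, 3.99 in J6 and 5.71 in J7, and at 1.44, 1.50, 1.70 and 1.59 CPM in K14J26, K14J28, K14J29 and K14J30. The groups were well apart and the Mutant embryos lay close together, unlike for Ern1 and Xbp1. Derl3 fell by 1.68 on the log2 scale (standard error 0.21, adjusted p = 0.00523) and passed in all 8 fits without 1 embryo. Syvn1, the ubiquitin ligase HRD1, rose by 0.59 (adjusted p = 0.0376), Edem3, which trims mannose from misfolded glycoproteins, by 0.45 (adjusted p = 0.0292), and Wfs1, an ER membrane protein, by 0.40 (adjusted p = 0.0465), while Ube2j2, a ubiquitin-conjugating enzyme, fell by 0.28 (adjusted p = 0.0419). Each of these 4 calls was lost without J3, J5, J6, J7 or K14J29, those of Wfs1 and Ube2j2 also without K14J30 and that of Wfs1 without K14J26, with ranges of 0.42 to 0.70, 0.37 to 0.55, 0.34 to 0.50 and -0.34 to -0.23. Scaling by library size also ended the calls of Edem3 and Wfs1, and upper-quartile scaling or no count filter that of Wfs1. Without K14J26 and K14J29 together the calls of Syvn1 (0.28), Edem3 (0.30) and Wfs1 (0.24) were lost, and the groups overlapped for Wfs1. Ssr3, a subunit of the translocon-associated complex and the most abundant of the list per kilobase, was not called.

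Of 8 transcripts that IRE1 is known to cut, 1 rose and 1 fell, with a median of 0.08. Sparc, a secreted matrix protein of dentin and bone, rose by 0.93 (adjusted p = 0.0323; 0.69 to 1.11 without 1 embryo, lost without J3, J5, J6, J7 or K14J29). It was 0.47, and not called, without K14J26 and K14J29 together, and the groups overlapped, with J6 at 2014 CPM above K14J28 at 1980 CPM. Pdgfrb, a receptor of mesenchymal cells, fell by 0.39 (adjusted p = 0.0215; -0.44 to -0.33, lost without J3, J5 or J7).

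Among 10 glutathione genes, the pathway in which the Chac1 enzyme acts, 2 rose and 0 fell (edgeR; 1 at an unadjusted p under 0.05 and 1 with DESeq2), with a median of 0.20. Chac2, the close relative of Chac1 with the same reaction, was at 3.06 to 3.83 CPM in Control and 4.47 to 5.39 CPM in Mutant molars and rose by 0.60 (adjusted p = 0.0226), against the 3.80 of Chac1. Ggt1, which cleaves glutathione outside the cell, rose by 0.24 (adjusted p = 0.0478). The call of Chac2 was lost without J3, J6, J7 or K14J29 (0.56 to 0.66), and that of Ggt1 without any embryo other than K14J26 (0.19 to 0.27). Scaling by library size ended both, and that of Ggt1 was also lost with upper-quartile scaling, either other count filter, or Amelx, Ambn and Enam left out before scaling, or without K14J26 and K14J29 together (0.26). Gpx4, the peroxidase that spends glutathione on lipid peroxides and the most abundant of the list per kilobase, gave -0.11 on the log2 scale (adjusted p = 0.244).

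The genes most like Chac1 and Ern1 in their profile were taken as those with the smallest mean absolute difference of centred log2 CPM over the 8 embryos, among 11909 genes of at least 5 CPM on average. For Chac1 these were Fxyd4, a regulator of the sodium pump, at 0.39, Mypn, a sarcomere protein, at 0.48 and Syt10, a synaptotagmin, at 0.48. For Ern1 they were Plxna4, a semaphorin receptor, at 0.05, Itpripl2 at 0.11 and Inpp5j, an inositol phosphatase, at 0.12. Plxna4 was at 24.2 to 32.9 CPM in Control molars. It was at 234 CPM in K14J26, 76.8 in K14J29, 46.6 in K14J30 and as little as 36.5 in K14J28. These CPM were close to those of Ern1 in every embryo, but CPM take no account of gene length and do not compare levels between genes. Fxyd4 was at 2.06 to 5.44 CPM in Control and at 78.1, 32.7, 17.0 and 7.42 CPM in the same Mutant embryos.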

How the data were processed

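RNA from the pooled left and right lower first molars of 4 Control and 4 Mutant embryos at E18.5 was sequenced. The authors aligned the reads with STAR to GRCm38.p3 and deposited raw, not normalized counts per Ensembl gene, 1 table per embryo. The paper names GenomicRanges and the submitters' processing notes name featureCounts as the counting tool, and the labels name Trizol where the methods name an RNeasy kit. The annotation release and the use of strand are not given in the sources used here, and the TruSeq kit does not mark strand.

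Symbols and positions were taken from GENCODE M21, which held 42548 of the 43629 identifiers. A gene was kept if 2 or more of the 4 embryos in 1 group had 10 counts or more, which 17129 did. These were normalized by TMM and tested without covariates in edgeR 4.0.16 (glmQLFit and glmQLFTest, R 4.3.3), with Benjamini-Hochberg adjustment over all of them. An adjusted p under 0.05 counts as a call. Standard errors were derived from the F statistic. Values per embryo are CPM on the TMM-scaled library size. Levels per kilobase divide CPM by the merged length of all annotated exons of a gene, which can exceed that of the transcripts expressed. The SDs given are those between the 4 embryos of a group, which include counting error. A standard error comes from the fit to both groups, with a shared variance moderated across genes, and does not describe the spread of either group. The labels give each table as a separate embryo, so n is the number of embryos. The method was tested on simulated counts with the same spread for all genes and both groups. That simulation did not include the wider spread of these Mutant embryos, so it does not show how the method performs under it.

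The 10 genes and all lists were chosen with earlier results of these data known, and the pathway and marker lists were written from general knowledge. The genes named are the 10, and of each pathway list the 3 largest rises and the 3 largest falls with an adjusted p under 0.05 and the most abundant gene per kilobase, the 3 genes most like Chac1 and the 3 most like Ern1, and Jag1, Amelx, Ambn, Enam and Acta1. Others were named after their values were seen. The alternatives were DESeq2 1.42.0, scaling by relative log expression, by the upper quartile or by library size alone, no count filter, a filter of 1 CPM in 4 libraries, the criteria of the study (unadjusted p of at most 0.05 and log2 fold change of at least 0.5 in size), leaving out Amelx, Ambn and Enam before scaling, and leaving out each embryo, J6 with J7, or K14J26 with K14J29.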

Additional observations from a re-analysis of the deposited data

Results flagged for a closer look

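Hspa5 in J7, at 1046 CPM, lay far above the other 3 Control embryos, the gap to the nearest of them being 0.871 of the range of the group. Fkbp14 in J6, at 96.2 CPM, lay above the other 3 Control embryos in the same way, with a gap of 0.850 of the range. Both gaps exceed Dixon's critical value for 4 samples, and 72 groups of 4 embryos were examined, of which chance alone marks about 1 in 20. Without J7 the log2 fold change of Hspa5 was -0.07, against -0.13 in the whole fit. Without J6 that of Fkbp14 was 0.81, against 0.74. The cause of neither gap was tested.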

How the results depend on the processing

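Among the 10 genes and the pathway genes that were named by rule, with Eif2ak3, no called value changed direction under the alternatives run. The number of the 10 genes called higher, 3 in the fit reported, was 3 with relative log expression, upper-quartile or library size scaling, 4 with DESeq2, without a count filter and with the filter of 1 CPM (which left out Trib3), the fourth being Xbp1, and 0 without J6 and J7 together. It ran from 1 to 4 when 1 embryo was left out, and the number called lower ran from 0 to 1, the 1 being Ddit3 without K14J26. Of the 140 pathway genes, 20 were called higher, and this count was 12 with library size scaling, 29 with DESeq2, 8 without K14J26 and K14J29, 0 without J6 and J7 (20 at an unadjusted p under 0.05) and 1 to 40 when 1 embryo was left out, in fits that called 250 to 2479 of all genes higher. The 6 called lower became 10 with DESeq2, 0 without J6 and J7 (9 at an unadjusted p under 0.05) and 1 to 7 when 1 embryo was left out. Over all genes the fit without J6 and J7 called 3 higher and 4 lower. The fit without K14J26 and K14J29, with as many embryos, called 747 higher and 570 lower. The cause of the shifts between settings was not tested. Library size scaling ended the calls of Eif2ak3, Eif4ebp1, Sars, Edem3, Wfs1, Chac2 and Ggt1 (adjusted p from 0.0513 to 0.364 in edgeR). Upper-quartile scaling and the lack of a count filter ended those of Wfs1 and Ggt1 (0.0530 to 0.105), and the 1 CPM filter and the omission of Amelx, Ambn and Enam that of Ggt1 (0.0506 and 0.0552). Library size scaling moved the median log2 fold change of all genes by -0.10. Over all genes 1631 were called higher and 1133 lower, against 1363 and 1448 with upper-quartile scaling, 864 and 1065 with library size scaling and 2244 and 1718 with DESeq2. No paired analysis was possible because the Control and Mutant embryos share no replicate numbers. Counts were lowest for Trib3, with 2 to 22 per library, and for Chac1 in Control molars, with 14 to 25, so that counting error weighs more on these values than on the others.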
